A study of Bos taurus with 6 samples.

Results

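The genes described here are the EGF receptor family and ligands that bind it, in bovine embryonic stem cells grown on 2 kinds of feeder layer. They were matched by symbol and Entrez identifier, and comprise 4 receptors (EGFR, ERBB2, ERBB3 and ERBB4) and 5 ligands (HBEGF, AREG, EREG, BTC and NRG1), 9 of the 19163 genes in the count table. All 9 were found. RNA-seq was performed on the F7 line of pluripotent stem cells, which came from in vitro fertilised Holstein Friesian embryos. Cells cultured on mitomycin C-treated mouse embryonic fibroblasts are named MC-F7 (labelled 1M, 3 libraries), and cells cultured on methanol-fixed fibroblasts are named MT-F7 (3 libraries). The labels do not spell out 1M. It is taken here as the mitomycin C feeder because the study has these feeder types only. Both groups were kept for 15 passages in the same medium with FGF and the Wnt inhibitor IWR1, which was refreshed daily for MC-F7 and every other day for MT-F7. To separate feeders, dissociated cells were left to settle on gelatin and those that still floated were collected. The paper reports a lower rate of alignment to the bovine genome for MC-F7 than for MT-F7. It proposes that fixed feeders left less feeder contamination. How many mouse reads entered the counts of each group was not tested. All libraries come from 1 cell line. Nothing states that the replicates were separate cultures, and the study's statistics section describes its data in general as technical replicates, so SDs and p-values measure only the spread between these libraries, which may be technical.

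The receptors of this family are tyrosine kinases of the cell surface that signal as pairs after a ligand binds. ERBB2 binds no known ligand and ERBB3 has little kinase activity of its own, so each acts mainly through a partner. HBEGF, AREG, EREG and BTC are ligands of EGFR (HBEGF, EREG and BTC also of ERBB4), and NRG1 binds ERBB3 and ERBB4. They are made as membrane-bound precursors and cut free by metalloproteases. The signal then runs through adaptors such as GRB2 and SHC1 to the RAS-ERK and PI3K-AKT cascades, and in pluripotent stem cells neuregulin signalling is used in some defined media to support self-renewal.

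The 6 libraries held 21958386 to 24933430 counts, so that 3 counts in a library, the lowest level read as detection here, corresponded to 0.120 to 0.137 counts per 1000000 (CPM). CPM values below were scaled by TMM. POU5F1, a defining pluripotency factor, was at 1196 CPM in MC-F7 and 522 CPM in MT-F7. Of the 8 pluripotency genes in the count table, 6 were called lower in MT-F7, including NANOG and ZFP42, with 0 called higher. SALL4 and PRDM14 of that list were not called (log2 fold change 0.33 and 0.15, edgeR adjusted p = 0.286 and 0.669). Over all 13001 genes tested, 11.9% were called higher and 11.3% lower in MT-F7. The trophectoderm list had 0 called higher and 3 lower of 5 tested, with CDX2 at 0 counts in all libraries and KRT8 at 1431 against 554 CPM. TFAP2A and TFAP2C of that list were not called. The endoderm list had 1 called higher and 1 lower of 3 tested, with GATA4 at 0 counts. Of 5 neural genes tested, 2 were called higher (PAX6 and PAX3). NES, OTX1 and TUBB3 of that list were not called. Their log2 fold changes were 0.40, 1.81 and -0.22, and TUBB3 was at 202 CPM in MC-F7 and 174 CPM in MT-F7. Of 12 fibroblast genes, 4 were called higher and 1 lower, and their summed level was 232 to 311 CPM in MC-F7 and 359 to 409 CPM in MT-F7. Most of that sum was COL1A1, which was not called (205 and 268 CPM, adjusted p = 0.0942). The part of these cell markers in the levels below was not tested, and in bulk RNA fewer cells of a type cannot be told apart from less RNA per cell.

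The family was represented mainly by ERBB2 and, at a lower level, ERBB3, with NRG1, HBEGF and AREG as the ligands detected in most libraries. EGFR, ERBB4, EREG and BTC were near or under the detection level in most libraries. With edgeR's quasi-likelihood test, 5 members passed the filter on low counts and 0 of the 5 reached an adjusted p under 0.05, whereas 23.2% of the 13001 genes tested did so (11.9% higher and 11.3% lower in MT-F7). At an unadjusted p under 0.05 the count for the members was also 0. ERBB4, which the filter left out, was called higher in MT-F7 by DESeq2 and by edgeR when all genes with a count were tested. Each of these fits called 1 member, and they called 22.7% and 19.2% of all genes tested. The median log2 fold change of the 5 tested members was 0.20, and that of all tested genes was -0.0026.

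**Figure D1:**
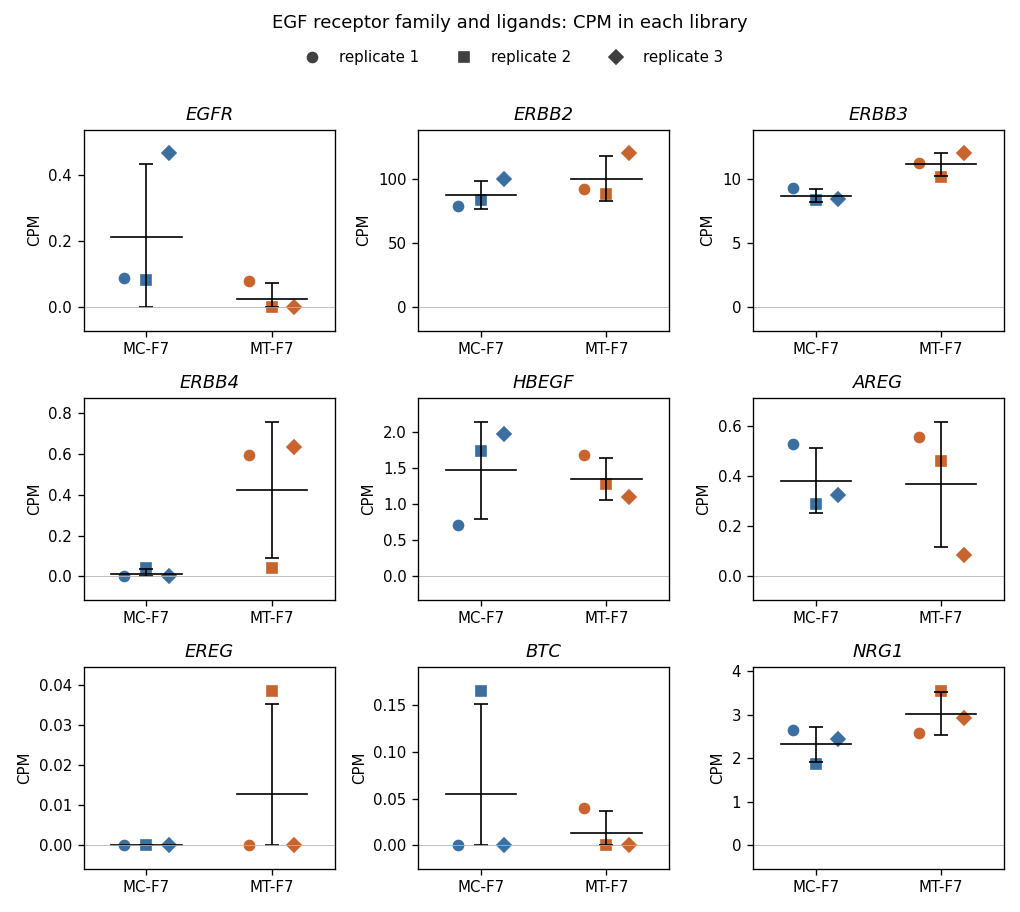
CPM (y axis, linear, a separate scale for each gene) of the 9 members in the 3 MC-F7 and 3 MT-F7 libraries. Points are libraries, marked by replicate, horizontal lines are means and bars are SD, drawn no lower than 0. ERBB3 lies above all MC-F7 libraries in the 3 MT-F7 libraries, while ERBB2, HBEGF, AREG and NRG1 overlap between the groups.

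ERBB2, the receptor with no ligand of its own, was the most abundant member. Its level was 78.9, 83.7 and 99.9 CPM in the 3 MC-F7 libraries and 91.9, 88.3 and 120.3 CPM in the 3 MT-F7 libraries. The ranges overlapped, with replicate 3 the highest library in each group. The mean was 87.5 ± 11.0 CPM (SD, n = 3) in MC-F7 and 100.2 ± 17.5 CPM (SD, n = 3) in MT-F7. The log2 fold change of MT-F7 over MC-F7 was 0.20 (SE 0.17, 95% interval -0.17 to 0.56, adjusted p = 0.436), and without MT-F7 replicate 3 it was 0.035. The interval spans folds of 0.892 to 1.47, so changes within that span were not resolved by 3 libraries a group.

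ERBB3, the kinase-poor partner of ERBB2 and a neuregulin receptor, was at 9.33, 8.37 and 8.46 CPM in MC-F7 and at 11.2, 10.2 and 12.02 CPM in MT-F7. It was the single tested member whose groups did not overlap, with all 3 MT-F7 libraries above all 3 MC-F7 libraries. Non-overlapping groups were found for 40% of all tested genes. The mean was 8.72 ± 0.530 CPM in MC-F7 and 11.1 ± 0.913 CPM in MT-F7 (SD, n = 3 each), a log2 fold change of 0.35 (SE 0.18, 95% interval -0.029 to 0.74) that did not pass the test (edgeR adjusted p = 0.172, unadjusted p = 0.0671). Over the alternatives the adjusted p of ERBB3 ranged from 0.0679 to 0.384. The lowest came from limma on log2(TPM + 1) with values not scaled for depth, and limma on rescaled TPM gave 0.157.

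EGFR, the receptor of HBEGF, AREG and EREG, was close to the detection level. The 3 MC-F7 libraries held 2, 2 and 10 counts of EGFR, and the MT-F7 libraries held 2, 0 and 0. MC-F7 replicate 3 held 10 of the 16 EGFR counts of the series, and the other 5 libraries were each under 3 counts. The summed level was 7.66 times lower in MT-F7, with an exact 95% counting interval of 1.76 to 69.5 that covers counting error only. EGFR was left out by the filter, and with all genes tested its adjusted p was 0.192 (0.227 by DESeq2).

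ERBB4, a receptor of the neuregulins that also binds HBEGF, EREG and BTC, was counted 0, 1 and 0 times in the MC-F7 libraries and 15, 1 and 15 times in the MT-F7 libraries. It reached 3 counts in replicates 1 and 3 of MT-F7, at 0.598 and 0.637 CPM, while MT-F7 replicate 2 held 1 count at a similar depth, so the groups overlapped in counts. The summed level was 28.3 times higher in MT-F7, with an exact 95% interval of 4.72 to 1154 that covers counting error only and not the spread between 15, 1 and 15 counts. The ratio rests on 1 count in MC-F7, in replicate 2, without which the group had 0, and it was 42.0 without MT-F7 replicate 2. The filter needs the minimum count in as many libraries as the smaller group holds, and ERBB4 did not pass it. With all genes tested the edgeR adjusted p was 0.0271, and by DESeq2 it was 0.0208. In the 4 fits without 1 library that tested it, ERBB4 passed the filter only through its 2 high MT-F7 libraries, so their p-values are not used here.

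HBEGF, a ligand that binds heparin through its own domain, was at 0.708, 1.74 and 1.96 CPM in MC-F7 and at 1.67, 1.27 and 1.10 CPM in MT-F7. The 3 MT-F7 libraries lay inside the range of MC-F7, whose replicate 1 was the lowest library. The log2 fold change was -0.12 (SE 0.42, 95% interval -1.03 to 0.79, adjusted p = 0.867), and its sign turned without MC-F7 replicate 2 (0.022) or replicate 3 (0.13) and in the 3 fits to per-length values that kept low genes. No direction can be given for HBEGF.

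AREG (amphiregulin) was lower still, at 0.531, 0.290 and 0.327 CPM in MC-F7 and 0.558, 0.463 and 0.0849 CPM in MT-F7. MT-F7 replicate 3 had 2 counts, under the detection level, and the other 2 MT-F7 libraries lay above or within the MC-F7 range. The log2 fold change was -0.038 (SE 0.65, 95% interval -1.45 to 1.37, adjusted p = 0.972). Its sign turned without MC-F7 replicate 1 (0.27) or MT-F7 replicate 3 (0.41) and in the same 3 fits to per-length values, so that no direction can be given.

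NRG1 (neuregulin 1), the ligand of ERBB3 and ERBB4, was at 2.65, 1.87 and 2.43 CPM in MC-F7 and at 2.59, 3.55 and 2.93 CPM in MT-F7. The groups overlapped through MT-F7 replicate 1, which lay under the highest MC-F7 library. Means were 2.32 ± 0.407 CPM and 3.02 ± 0.489 CPM (SD, n = 3 each), with a log2 fold change of 0.39 (SE 0.28, 95% interval -0.23 to 1.00, adjusted p = 0.357). The table of per-length values held a second gene model with the symbol NRG1, at 0.129 to 0.262 per-length units in the 6 libraries. It had no row of its own in the count table and was not tested.

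EREG (epiregulin) had 1 count in the whole series, in MT-F7 replicate 2. BTC (betacellulin) had 4 counts in MC-F7 replicate 2 and 1 count in MT-F7 replicate 1, and 0 in the others. Neither ligand was tested, and a difference between the groups was not detectable at this depth. In the RefSeq annotation (assembly ARS-UCD2.0) EPGN, EREG, AREG and BTC follow each other in that order among protein-coding genes, and in this cluster AREG was the single gene with 3 or more counts in most libraries, EPGN having 0 counts in all.

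To compare levels between genes, the deposited per-length values were rescaled so that each library summed to 1000000. On this scale the order of the mean levels in MC-F7 was ERBB2 (18.5 ± 1.92, SD, n = 3), ERBB3 (2.10 ± 0.131), HBEGF (1.20 ± 0.542), NRG1 (1.05 ± 0.157), AREG (0.360 ± 0.119), EGFR (0.0625 ± 0.0631), BTC (0.0223 ± 0.0387), ERBB4 (0.0044 ± 0.0077) and EREG (0). In MT-F7 the order was ERBB2 (22.4 ± 2.84, SD, n = 3), ERBB3 (2.83 ± 0.114), NRG1 (1.45 ± 0.279), HBEGF (1.17 ± 0.277), AREG (0.375 ± 0.258), ERBB4 (0.136 ± 0.106), EGFR, EREG and BTC, the last 3 under 0.01. HBEGF and NRG1 overlapped in both groups and changed places between them. In every library ERBB2 was above ERBB3, ERBB3 above these ligands, and these ligands above AREG. In MC-F7 replicate 1, HBEGF and AREG were close, at 0.571 and 0.497 per-length units from 16 and 12 counts, so their order there is not resolved. The mean level of ERBB2 over the 6 libraries was above that of 81.5% of the Ensembl genes in the table, ERBB3 above 54.9%, NRG1 above 48.7%, HBEGF above 48.3% and AREG above 39.1%.

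ERBB2 made up 88.1%, 89.6% and 90.7% of the summed per-length level of the 4 receptors in the MC-F7 libraries and 87.0%, 88.4% and 89.2% in those of MT-F7. ERBB3 made up 8.71% to 11.8% across the MC-F7 libraries and 10.1% to 12.1% across those of MT-F7. The ratio of ERBB2 to ERBB3 was 8.90 ± 1.48 (SD, n = 3) in MC-F7 and 7.90 ± 0.838 in MT-F7, with overlapping libraries. EGFR reached at most 0.600% of the receptor level (MC-F7 replicate 3) and ERBB4 at most 0.822% (MT-F7 replicate 1). The shares of ERBB2 and ERBB3 overlapped between the groups, and no test was run on shares.

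The ligand shares spread widely within each group, and those of NRG1, HBEGF and AREG overlapped between the groups. NRG1 made up 52.8%, 32.5% and 36.6% of the summed per-length level of the 5 ligands in the MC-F7 libraries and 38.2%, 51.8% and 57.6% in the MT-F7 libraries. HBEGF made up 25.3%, 54.5% and 53.1% of it in the MC-F7 libraries and 44.2%, 33.4% and 38.9% in the MT-F7 libraries. On this scale NRG1 was the leading ligand in MC-F7 replicate 1 and MT-F7 replicates 2 and 3, and HBEGF in the others. The 5 ligands summed to 2.63 ± 0.329 per-length units in MC-F7 and 3.01 ± 0.602 in MT-F7, against 20.7 ± 1.85 and 25.3 ± 2.97 for the 4 receptors (SD, n = 3 each). Without the length correction NRG1 led in all 6 libraries and took a mean of 55.2% of the ligand level in MC-F7 against 63.7% in MT-F7.

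**Figure D2:**
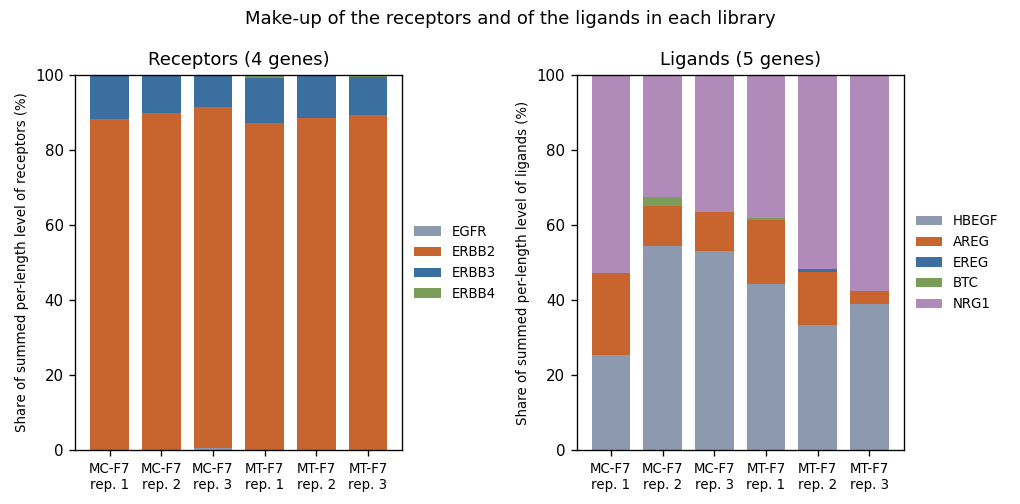
Share (y axis, percent) of each of the 4 receptors (left) and each of the 5 ligands (right) in the summed per-length level, in each of the 6 libraries (x axis). ERBB2 fills 87.0% to 90.7% of every receptor bar, whereas NRG1 and HBEGF change places as the leading ligand between libraries of the same group.

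The other genes of the pathway were taken from 9 lists of 87 genes in all, of which 80 were tested. Of these, 12 were called higher and 9 lower in MT-F7, or 26.3% against 23.2% of all tested genes, and the median log2 fold change was 0.13. Calls were made in both directions in 5 of the 9 lists.

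**Figure D3:**
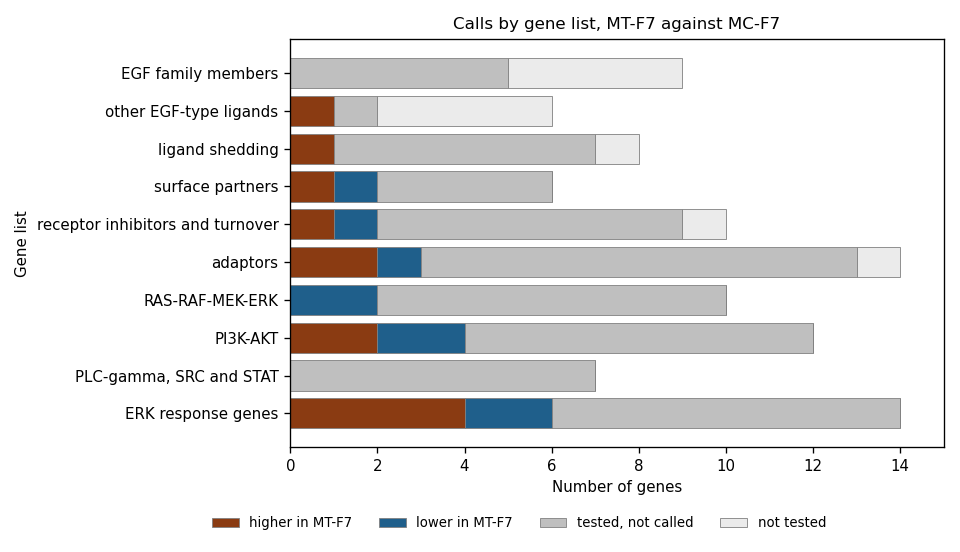
Number of genes (x axis) of the EGF family and of each of the 9 pathway lists (y axis) that were called higher in MT-F7, called lower, tested but not called, or not tested. The family has 0 called of 5 tested, and the ERK response genes have 4 called higher and 2 lower of 14.

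Of the 6 other EGF-type ligands, 4 were in the count table and 2 were tested. NRG3, a neuregulin that binds ERBB4, was called higher, at 0.575, 0.124 and 0.281 CPM in MC-F7 and 1.47, 1.70 and 1.74 CPM in MT-F7. All MT-F7 libraries lay above all MC-F7 libraries, and MC-F7 replicate 2 was at 3 counts. The log2 fold change was 2.32 (SE 0.50, adjusted p = 0.0052), and the call held in all 6 fits without 1 library. NRG2 had a log2 fold change of 0.44 (adjusted p = 0.509). TGFA had 15 counts in the series and EPGN 0. EGF and NRG4 were not analysed here.

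Of 8 genes of ligand shedding, 7 were tested and 1 was called. ADAM15, a metalloprotease of the cell surface, was higher in MT-F7 (11.5 ± 1.22 against 17.8 ± 4.34 CPM, SD, n = 3 each, log2 fold change 0.63, SE 0.20, adjusted p = 0.0375). This call was lost without MC-F7 replicate 1 (adjusted p = 0.0612) or 2 (0.159) and without MT-F7 replicate 1 (0.0514) or 3 (0.124). ADAM17, the main sheddase of AREG and HBEGF, was at 5.94 and 6.78 CPM in MC-F7 and MT-F7 (log2 fold change 0.19, adjusted p = 0.554). ADAM10, which cuts BTC and EGF precursors, was at 56.8 and 78.8 CPM (log2 fold change 0.47, adjusted p = 0.0574). It was not called in this fit, but was by DESeq2 (adjusted p = 0.0383) and by edgeR with the replicate block (0.0040). Of the 6 fits without 1 library, 2 called it.

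Of 6 surface partners, all tested, 1 was called higher and 1 lower. Both are tetraspanins, membrane proteins that organise receptors and ligands in the cell surface. CD82 was higher, at 2.70, 2.98 and 1.87 CPM in MC-F7 and 5.18, 5.95 and 13.0 CPM in MT-F7 (log2 fold change 1.67, SE 0.35, adjusted p = 0.0042), with MT-F7 replicate 3 far above the other 2. CD9, a partner of the HBEGF precursor, was lower, at 725, 656 and 329 CPM in MC-F7 and 281, 212 and 179 CPM in MT-F7 (log2 fold change -1.35, SE 0.27, adjusted p = 0.0029). MC-F7 replicate 3 was the closest of its group to the MT-F7 libraries. Both calls held in all 6 fits without 1 library. With limma on per-length values, CD9 was not called on log2(TPM + 1) (adjusted p = 0.0910), log2(TPM + 0.1) (0.0778) or rescaled TPM (0.0650), and CD82 was not called on log2(TPM + 1) (0.0698).

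Of 10 receptor inhibitors and genes of receptor turnover, 9 were tested, 1 was called higher and 1 lower. LRIG3, a transmembrane protein of the leucine-rich repeat family that includes the receptor inhibitor LRIG1, was higher in MT-F7 (60.3 ± 7.98 against 89.0 ± 3.63 CPM, SD, n = 3 each, log2 fold change 0.56, adjusted p = 0.0164). The LRIG3 call was lost without MC-F7 replicate 1 (adjusted p = 0.0617) or 2 (0.0768) and without MT-F7 replicate 1 (0.0716) or 2 (0.0608). SOCS5, a suppressor of cytokine and EGFR signalling, was lower (11.3 ± 0.890 against 6.94 ± 0.212 CPM, log2 fold change -0.71, adjusted p = 0.0121), and this call was lost without MC-F7 replicate 2 (adjusted p = 0.0604). ERRFI1 (MIG6), the feedback inhibitor of the receptor kinases, had a log2 fold change of 0.18 (adjusted p = 0.530), and the ubiquitin ligase CBL, which marks active receptors for degradation, one of -0.066 (adjusted p = 0.948).

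Of 14 adaptors, 13 were tested, 2 were called higher and 1 lower. GRB7, an adaptor that binds phosphorylated ERBB2 and ERBB3, had the largest decrease among the pathway genes tested. It was at 17.8, 18.1 and 18.9 CPM in MC-F7 and 5.02, 3.48 and 3.52 CPM in MT-F7. The spread was small within MC-F7 (SD 0.577 CPM) and, for its level, larger within MT-F7 (SD 0.878 CPM). The log2 fold change was -2.19 (SE 0.20, adjusted p = 8.87e-06), and the adjusted p without any 1 library was at most 9.86e-05. SHC1, which links active receptors to GRB2, was higher (194 ± 10.2 against 293 ± 8.40 CPM, log2 fold change 0.60, adjusted p = 0.0082), and this call was lost without MC-F7 replicate 2 (adjusted p = 0.0544). EPS8, a substrate of EGFR that acts on actin, was higher (16.4 ± 3.88 against 25.9 ± 4.06 CPM, log2 fold change 0.66, adjusted p = 0.0285), and its call was lost without MC-F7 replicate 2 (adjusted p = 0.127) or 3 (0.0726) and without MT-F7 replicate 2 (0.122). GRB2 was at 21.5 and 24.2 CPM (log2 fold change 0.17, adjusted p = 0.516).

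In the RAS-RAF-MEK-ERK cascade all 10 genes were tested, 0 were called higher and 2 lower. BRAF, a kinase that phosphorylates MEK, was at 16.8, 19.1 and 21.6 CPM in MC-F7 and 6.89, 5.91 and 5.18 CPM in MT-F7. All MT-F7 libraries lay far under all MC-F7 libraries, with a log2 fold change of -1.67 (SE 0.19, adjusted p = 4.91e-05) that was called in all 6 fits without 1 library. MAP2K2 (MEK2) was lower by less (283 ± 29.2 against 197 ± 13.7 CPM, log2 fold change -0.53, adjusted p = 0.0226), and this call was lost without MC-F7 replicate 1 (adjusted p = 0.0638) and without MT-F7 replicate 1 (0.0771) or 2 (0.105). ARAF, a kinase of the same family, was not called, with a log2 fold change of 0.050 (adjusted p = 0.849).

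All 12 genes of the PI3K-AKT list were tested, and 2 were called higher and 2 lower. The genes called higher encode regulatory subunits of PI3-kinase and those called lower encode catalytic subunits. PIK3R1 (p85 alpha) was at 5.53, 4.68 and 4.58 CPM in MC-F7 and 10.5, 9.69 and 10.3 CPM in MT-F7 (log2 fold change 1.04, SE 0.19, adjusted p = 0.0019). PIK3R3 was called higher from low levels (0.371 ± 0.106 against 1.24 ± 0.483 CPM, log2 fold change 1.73, adjusted p = 0.0227), a call lost without MC-F7 replicate 2 (adjusted p = 0.106) and without MT-F7 replicate 1 (0.0700) or 3 (0.0915). PIK3CD was at 3.10, 4.02 and 4.21 CPM in MC-F7 and 1.04, 1.43 and 1.23 CPM in MT-F7 (log2 fold change -1.61, SE 0.30, adjusted p = 0.0018). PIK3CB was called lower (24.7 ± 6.07 against 15.7 ± 1.27 CPM, log2 fold change -0.66, adjusted p = 0.0274), a call lost without MC-F7 replicate 2 (adjusted p = 0.101) or 3 (0.0835) and without MT-F7 replicate 1 (0.108) or 2 (0.0560). The PIK3R1 and PIK3CD calls held in all 6 of these fits. PIK3CA (log2 fold change -0.19, adjusted p = 0.546) and PIK3R2 (0.23, adjusted p = 0.278) were not called.

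Of the 7 genes of the PLC-gamma, SRC and STAT list, all tested, 0 were called by edgeR without a block and with all 6 libraries. At an unadjusted p under 0.05 there was 1. That gene was STAT3, at 14.0 and 19.9 CPM in MC-F7 and MT-F7 (log2 fold change 0.50, adjusted p = 0.0597), named here after its value was seen. STAT3 was called by edgeR with the replicate block (adjusted p = 0.0149) and in 2 of the 6 fits without 1 library. DESeq2 did not call it (adjusted p = 0.0519).

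Of 14 ERK response genes, all tested, 4 were called higher and 2 lower. The transcription factor FOS was at 10.9, 15.9 and 19.2 CPM in MC-F7 and 77.4, 66.2 and 100.03 CPM in MT-F7, a log2 fold change of 2.41 (SE 0.22, adjusted p = 1.04e-05). EGR1, another immediate early transcription factor, was at 55.4, 54.8 and 91.8 CPM in MC-F7 and 277, 221 and 344 CPM in MT-F7, a log2 fold change of 2.06 (SE 0.23, adjusted p = 4.36e-05). PHLDA1 was also higher (4.03 ± 0.847 against 7.75 ± 0.646 CPM, log2 fold change 0.94, adjusted p = 0.0085). The genes called lower were SPRY4, a Sprouty inhibitor of ERK signalling, at 14.0, 16.1 and 15.1 CPM in MC-F7 and 5.38, 4.94 and 5.90 CPM in MT-F7 (log2 fold change -1.48, SE 0.18, adjusted p = 9.6e-05), and the ETS factor ETV4 (16.2 ± 2.49 against 9.37 ± 1.70 CPM, log2 fold change -0.79, adjusted p = 0.0115). The ETV4 call was lost without MT-F7 replicate 2 (adjusted p = 0.0581). It was also lost with limma on log2(TPM + 1) (adjusted p = 0.0615) and log2(TPM + 0.1) (0.0546). The FOS, EGR1, PHLDA1 and SPRY4 calls held in all 6 fits without 1 library. DUSP6, the ERK phosphatase induced by ERK itself, had a log2 fold change of -0.21 (adjusted p = 0.349), SPRY2 one of 0.30 (adjusted p = 0.155) and MYC one of -0.25 (adjusted p = 0.460), so the list did not move in 1 direction.

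**Figure D4:**
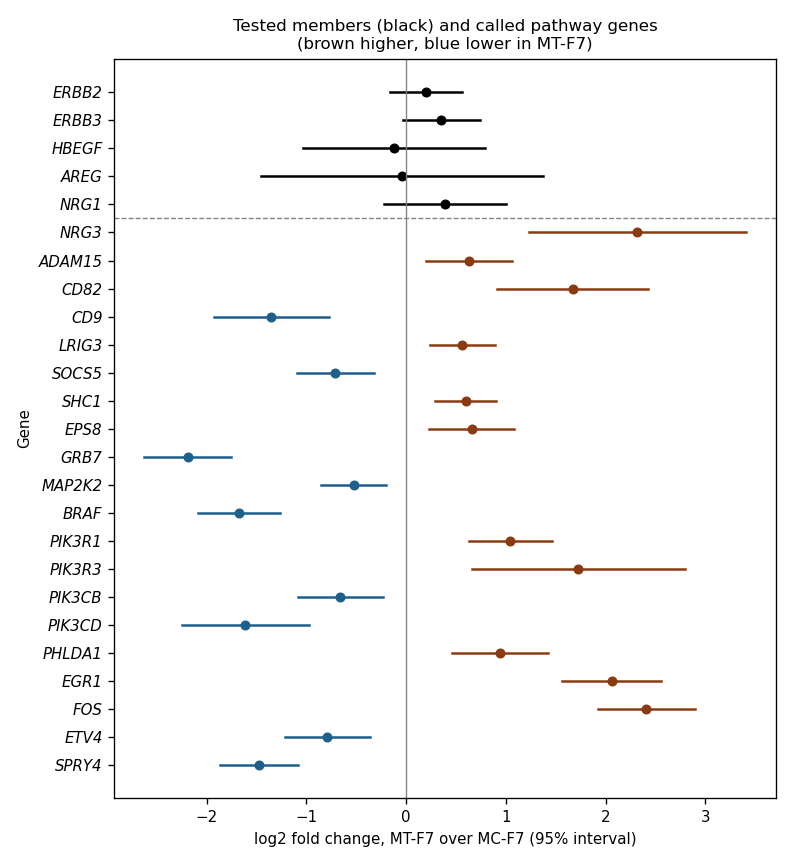
Log2 fold change of MT-F7 over MC-F7 (x axis) with its 95% interval (line) for the 5 tested members (black) and the 20 named pathway genes called higher (brown) or lower (blue). The intervals of the 5 members all include 0, whereas pathway genes range from -2.19 (GRB7) to 2.41 (FOS).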

How the data were processed

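Total RNA of floating bovine F7 cells was sequenced in 3 MC-F7 and 3 MT-F7 libraries. The authors aligned reads with HISAT2 (v2.0.5) and counted them per gene with featureCounts (v1.5.0-p3), and the deposited values are raw counts with Entrez identifiers. The genome build is not given in the sources used here. The authors also deposited TPM values. These were a constant multiple of the count for each gene in all libraries (9727 of the 9728 genes that reached 50 counts in all 6, tolerance 0.001) and summed to 154763 to 164394 per library, so they were not scaled for depth and were rescaled here to 1000000. Of 19163 genes, 19074 had a RefSeq symbol.

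Counts were tested with edgeR (v4.0.16) quasi-likelihood fits after TMM scaling (factors 0.971 to 1.04), with filterByExpr (minimum count 10, total 15), no block, and Benjamini-Hochberg adjustment over 13001 genes at 0.05. The SE is the log2 fold change over the root of the F statistic. In counts simulated from these libraries, 182 of 200 changed genes were recovered with 11 false calls, from 19163 genes before the filter. The changed genes were well counted and given large folds at a single dispersion. This recovery therefore does not describe members with low counts or small changes. Alternatives were RLE factors, library size, DESeq2 (v1.42.0), other filters, a replicate block, leaving out each library, and limma (v3.58.1) on log2(TPM + 1) or log2(TPM + 0.1). The limma fits used the TPM values as deposited, without scaling for depth, except where rescaled TPM is named. The members and lists, including those of pluripotency, fibroblast, trophectoderm, endoderm and neural markers, were chosen with earlier results of these data known. All members were named, and of each pathway list at most the 3 called genes of largest change in each direction. Uncalled pathway genes named beside them fall outside that rule and were chosen, after their values were seen, for their known role. No sequence was used.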

Additional observations from a re-analysis of the deposited data

How the results depend on the processing

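The count of members called was 0 under RLE factors, library size scaling, the filter of 10 counts in every library, the replicate block and limma on TPM, and 1 (ERBB4, higher in MT-F7) by DESeq2 and with all genes of at least 1 count. Leaving out 1 library gave 0 to 1, the 1 being ERBB4 without MT-F7 replicate 2, a fit that drops the MT-F7 library with 1 count and admits the gene only through the 2 libraries where it is high, so that nothing is read from it. ERBB4 did not pass the filter in the reported fit. Leaving out 1 library moved the log2 fold change of HBEGF over -0.45 to 0.13 and that of AREG over -0.45 to 0.41. That of HBEGF turned positive without MC-F7 replicate 2 (0.022) or 3 (0.13) and with limma on log2(TPM + 1) (0.0041), log2(TPM + 0.1) (0.047) and TPM rescaled to 1000000 (0.0049, a setting chosen after seeing the data). That of AREG turned positive without MC-F7 replicate 1 (0.27) or MT-F7 replicate 3 (0.41) and in the same limma fits (0.0054, 0.0091 and 0.00041). The cause was not tested.

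Of the 80 pathway genes tested, 21 were called, and 14 to 23 were called over all the alternatives except the replicate block. Replicates share numbers in the labels, but nothing states that the numbers pair the samples. Same-numbered libraries deviated from their group means with correlations of 0.167, 0.0707 and 0.505. Of the 6 libraries, 2 correlated best with their own number, and both were replicate 3. MC-F7 replicate 1 and MT-F7 replicate 2 correlated best with each other, as did MC-F7 replicate 2 and MT-F7 replicate 1. Whether libraries of the 2 groups share a batch was not tested. With the replicate block 0 members and 30 pathway genes were called, and 4674 of all genes against 3016. Of the 20 named pathway genes, 13 were called by limma on log2(TPM + 1), 14 on log2(TPM + 0.1) and 15 on rescaled TPM, with PIK3CB, EPS8, SOCS5 and CD9 not called in any of these fits and CD82 not called on log2(TPM + 1). ETV4 was not called on log2(TPM + 1) or log2(TPM + 0.1), ADAM15 on log2(TPM + 1) or rescaled TPM, and MAP2K2 on log2(TPM + 0.1). All 20 were called with RLE factors, library size scaling, DESeq2, all genes and the block. In the fits without 1 library 13 to 18 were called.

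Without the length correction the mean shares moved by more than the SD between libraries for ERBB2 in MT-F7 (89.5%), ERBB3 in MT-F7 (10.1%), NRG1 in MC-F7 (55.2%) and MT-F7 (63.7%), and HBEGF in MT-F7 (28.4%). At this depth EGFR, ERBB4, EREG and BTC were at or under 3 counts in most libraries, and the 5 ligands together had few counts, so differences between the groups of the size of their intervals were not resolved.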

Other observations

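In the RefSeq annotation (assembly ARS-UCD2.0) ERBB2 lies between PGAP3 and MIEN1, with GRB7 as the next protein-coding gene after MIEN1. These neighbours were looked at after the GRB7 value was seen. GRB7 was lower in MT-F7 by a log2 fold change of -2.19 (edgeR adjusted p = 8.87e-06), while ERBB2, 2 protein-coding genes away, was at 0.20 (adjusted p = 0.436). Between them MIEN1 was at 20.7 ± 4.38 CPM in MC-F7 and 14.5 ± 1.54 CPM in MT-F7 (SD, n = 3 each, log2 fold change -0.52, adjusted p = 0.0661). On the other side of ERBB2, PGAP3 had a log2 fold change of 0.40 (adjusted p = 0.158) and STARD3, 4 genes away, was higher in MT-F7 at 19.9 ± 1.35 against 35.5 ± 7.77 CPM (log2 fold change 0.83, adjusted p = 0.0050). GSDMB, 5 genes away on the side of GRB7, was higher, at 1.69 ± 0.156 against 6.74 ± 1.89 CPM (log2 fold change 1.99, adjusted p = 0.000232). PPP1R1B, 5 genes away on the side of STARD3, had a log2 fold change of -0.069 (adjusted p = 0.872). Thus 3 of the 7 tested genes from PPP1R1B to GSDMB, ERBB2 included, were called, in both directions, against 23.2% of all tested genes, and this stretch was picked after its values were seen.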
